A study of Mus musculus with 4 samples.

Results

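Cholesterol can be made in the cell, taken up from lipoproteins, or stored as esters, and 30 genes for these steps were followed here across ovarian cell classes. The genes were chosen by symbol, and all 30 were found among the 32285 genes of the files. By role, 7 encode enzymes of the mevalonate steps (Acat2, Hmgcs1, Mvk, Pmvk, Mvd, Idi1 and Fdps). Another 12 act on squalene and the sterol rings (Fdft1, Sqle, Lss, Cyp51, Tm7sf2, Lbr, Msmo1, Nsdhl, Hsd17b7, Ebp, Sc5d and Dhcr7), which gives 19 synthesis genes. Of the rest, 4 sense sterols or drive transcription (Srebf1, Srebf2, Scap and Insig1), 3 serve uptake and endosomal release (Scarb1, Npc1 and Npc2), and 4 serve storage, transfer and efflux (Soat1, Stard4, Abca1 and Abcg1).

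Single-cell RNA libraries were made from mouse ovaries of 4 treatment groups, with 1 library per group. Mice were at postnatal day 25 and prepubertal. The control group received PBS or saline, the doxorubicin group 3 mg/kg of this chemotherapy drug, the doxorubicin+AMH group 3 mg/kg doxorubicin with 0.75 mg/kg recombinant human anti-Müllerian hormone (AMH), and the AMH group 0.75 mg/kg AMH alone. Doxorubicin was given in 2 weekly doses and ovaries were taken 4 h after the last of them. Each library pooled 1 ovary from each of 5 mice, and the strain is not given in the sources used here. The spread between mice was therefore not measured, no test between groups was made, and every ratio below compares libraries. Intervals are exact, at 95%, and cover counting error only.

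In the mevalonate pathway, acetyl groups are joined and reduced to isoprenoid units, which are condensed to squalene, closed into a ring and trimmed to cholesterol. When sterols in the endoplasmic reticulum are low, Scap carries the SREBP proteins (encoded by Srebf1 and Srebf2) to the Golgi, where they are cut and freed to activate the synthesis genes, while Insig1 holds them back when sterols are high. Theca cells surround the follicle and make androgens from cholesterol, whereas granulosa cells surround the oocyte, secrete AMH and turn androgens into estrogens. Mouse steroid-making cells also take cholesterol from high-density lipoprotein through Scarb1 and keep a reserve of esters made by Soat1.

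Promoter sequence was available for 23 of the 30 genes in the RefSeq table (GRCm38.p6). The 250 bases before each start were searched on both strands for the SREBP element written TCACNCCAC and for the NF-Y box CCAAT, 2 motifs known from sterol-regulated promoters. The element was present in 1 of the 23, Hmgcs1, against 1.22% of 27025 symbols in the table. The CCAAT box was present in 20 of the 23 (87.0%), against 37.5% of the symbols, and was not in the window of Acat2, Scap or Abca1. A symbol with several starts counted if any of its windows held the motif. Dhcr7 counted only through a window that lies wholly inside its gene model. The symbols were not limited to genes expressed here. The windows of 4 genes are shown as examples: Hmgcs1 holds the element, Nsdhl and Sc5d hold the box alone, and the efflux gene Abca1 holds neither. Each lies wholly before its GENCODE gene model, as do some others that are not shown. Each is printed on the gene's own strand, with the element, the CCAAT box or its reverse complement in capitals. Hmgcs1 lies on the plus strand (chr13:119690101-119690350), Nsdhl on the plus strand (chrX:72918271-72918520), Sc5d on the minus strand (chr9:42264301-42264550) and Abca1 on the minus strand (chr4:53159896-53160145).
Hmgcs1: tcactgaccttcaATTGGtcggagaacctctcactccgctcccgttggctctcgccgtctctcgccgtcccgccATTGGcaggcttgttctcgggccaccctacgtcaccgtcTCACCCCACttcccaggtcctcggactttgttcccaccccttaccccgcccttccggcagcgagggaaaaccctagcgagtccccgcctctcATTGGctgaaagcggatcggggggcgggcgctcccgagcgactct
Nsdhl: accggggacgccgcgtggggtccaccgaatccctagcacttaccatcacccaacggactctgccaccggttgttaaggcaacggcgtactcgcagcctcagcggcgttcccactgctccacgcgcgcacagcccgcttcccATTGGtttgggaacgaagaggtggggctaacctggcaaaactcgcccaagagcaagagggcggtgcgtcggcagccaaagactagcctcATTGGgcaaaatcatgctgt
Sc5d: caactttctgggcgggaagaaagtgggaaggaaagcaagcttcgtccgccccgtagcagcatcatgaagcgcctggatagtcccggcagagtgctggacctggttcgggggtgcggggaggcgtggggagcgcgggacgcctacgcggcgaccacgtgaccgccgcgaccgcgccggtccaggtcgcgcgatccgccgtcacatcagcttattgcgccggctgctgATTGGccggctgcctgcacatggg
Abca1: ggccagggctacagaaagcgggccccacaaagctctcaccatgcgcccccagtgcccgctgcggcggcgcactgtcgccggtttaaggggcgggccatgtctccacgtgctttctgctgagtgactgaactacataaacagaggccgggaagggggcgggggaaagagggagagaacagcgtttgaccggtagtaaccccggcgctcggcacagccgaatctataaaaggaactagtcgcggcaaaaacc
The Hmgcs1 window held 3 CCAAT boxes and 1 SREBP element, the Nsdhl window 2 boxes and the Sc5d window 1 box. A match describes letters only. Npc2, which encodes a lysosomal cholesterol carrier and whose AMH ratios in theca-like cells were above 0, also held 2 boxes.

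The libraries held between 7141 and 9478 cells and between 138647495 and 178279122 UMIs, which are molecular tags that count each captured transcript once. After filtering, 6078 to 7998 cells per library were clustered without use of the 30 genes, and classes were named from marker genes with the ending "-like". At least 50 cells in every library were found for 7 classes. Theca-like cells numbered 857, 606, 755 and 929 and granulosa-like cells 2153, 1901, 2334 and 3029. Lists of 4 values, here and below, give control first, then doxorubicin, then both agents together and last AMH alone. Levels are UMIs per 1000000 UMIs (CPM) of the class and are compared for 1 gene at a time, never between genes. In the GENCODE annotation (GRCm38), 7 of the genes overlap a gene on the other strand (Hmgcs1, Fdft1, Lss, Cyp51, Lbr, Srebf1 and Npc1). Tm7sf2 overlaps Vps51 on its own strand. Runs of 50 of the last 400 bases of Acat2 and Abcg1 recur in other genes counted in the files, and those of Idi1, Fdps and Sc5d in 3, 8 and 1 other annotated genes, so counts of these 6 are uncertain to that extent.

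Theca-like cells were the main site of expression in the libraries without AMH. Of the 7 classes, they had the highest level of 22 of the 30 genes in the control library and 24 in the doxorubicin library, but of 13 in doxorubicin+AMH and 12 in AMH. They ranked first in all 4 libraries for 10 genes: Hmgcs1, Idi1, Fdft1, Cyp51, Nsdhl, Hsd17b7, Sc5d, Srebf2, Scarb1 and Soat1. In the control library, Scarb1, the receptor for high-density lipoprotein, was at 820 CPM in theca-like cells against 302 in blood endothelial-like cells, the next class, and 69.8 in granulosa-like cells. Soat1, the enzyme that esterifies cholesterol, was at 1347 CPM in theca-like and 421 in granulosa-like cells. The 19 synthesis genes summed to 1850 CPM (1834 to 1867) in theca-like, 468 (463 to 473) in granulosa-like and 258 (252 to 264) in stroma-like cells of that library.

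Some members had another site. Macrophage-like cells had the highest level of Npc1, Npc2 and Abcg1 in every library. Npc2, a soluble carrier that moves cholesterol out of lysosomes, was at 783 CPM in macrophage-like cells of the control library, against 229 in stroma-like cells. Abcg1, a sterol efflux pump, was at 131 CPM there and at 46.3 in blood endothelial-like cells, and it was nearly unseen in theca-like cells, at 0.3 CPM in the control library. Lbr, a sterol reductase that also binds the nuclear lamina, and Stard4, a carrier of cholesterol between membranes, were highest in blood endothelial-like cells of the control library, at 64.2 and 40.7 CPM.

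**Figure D1:**
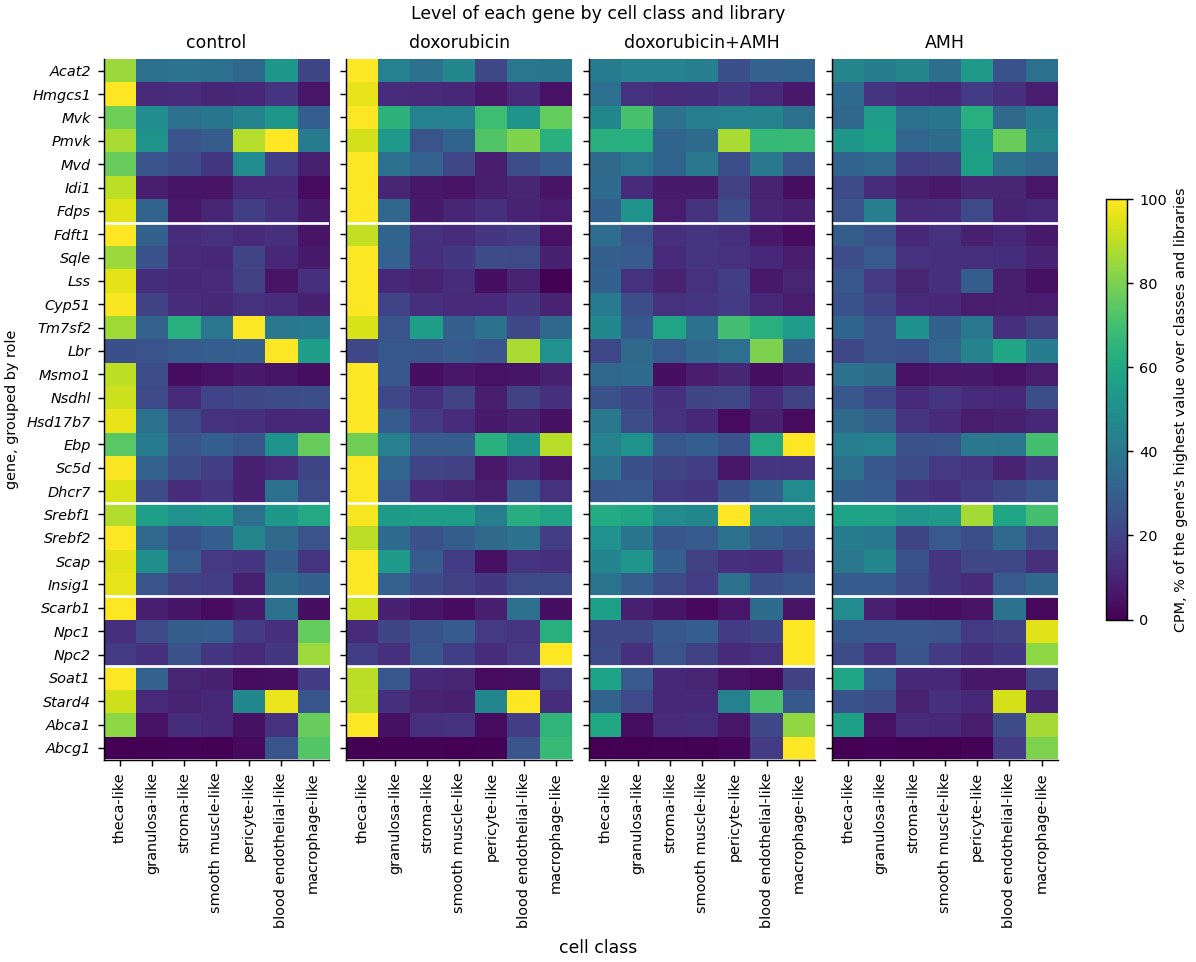
Level of each of the 30 genes (rows, grouped by role with white lines between roles) in 7 cell classes (columns) of each library, as a percent of the gene's highest CPM over classes and libraries. The theca-like column is bright for most synthesis genes in the control and doxorubicin libraries and darker in both AMH libraries, and Npc1, Npc2 and Abcg1 are brightest in macrophage-like cells.

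In theca-like cells the libraries with AMH had much lower levels of most of these genes than the libraries without it, with or without doxorubicin. The 19 synthesis genes summed to 1850, 1919, 717 and 634 CPM. Of the 30 genes, 20 reached 20 CPM when averaged across the libraries, the filter used for counts and medians, and the other 10 are given separately. Ratios are log2 with 5 CPM added to each level, so a 1.5-fold difference is 0.58. The median over these 20 was -1.31 for AMH against control and -1.23 for doxorubicin+AMH against doxorubicin, beside medians of all genes of -0.07 and -0.05. For AMH against control, 18 of the 20 were at least 1.5-fold lower, against 8.31% of 6272 genes, and 0 were at least 1.5-fold higher, against 5.79%. For doxorubicin+AMH against doxorubicin, 18 of 20 were at least 1.5-fold lower, against 8.27% of genes, and 0 higher, against 5.4%. Nsdhl, Sqle and Stard4, counted as lower in both, passed the filter only through the libraries without AMH. For these genes the filter itself favoured a lower call. The 2 comparisons share no library. Treatment and library cannot be told apart within either. Without the filter, 24 of the 30 were at least 1.5-fold lower for AMH against control, against 3.12% of 24840 genes, and 1, Npc1, was higher, against 3.03%. For doxorubicin+AMH against doxorubicin, 24 were lower, against 3.14%, and Npc1 again higher, against 2.69%.

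Among the mevalonate steps, Hmgcs1, an early condensing enzyme, was at 414, 399, 151 and 144 CPM. Its log2 ratio was -1.49 (-1.55 to -1.43) for AMH against control and -1.38 (-1.44 to -1.31) for doxorubicin+AMH against doxorubicin. Both AMH libraries lay far below both others, which lay close together. Idi1, which isomerizes the first isoprenoid unit, was at 160, 178, 62.2 and 41.0 CPM, with ratios of -1.84 and -1.44. Fdps, which builds farnesyl diphosphate, was at 226, 237, 74.0 and 61.2 CPM, with ratios of -1.80 and -1.62. Pmvk, a kinase of the pathway, had the smallest difference of the 4 mevalonate genes that passed the filter, at 35.3, 37.6, 25.4 and 21.3 CPM and ratios of -0.62 and -0.49.

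All 8 genes of the squalene and ring steps that passed the filter were at least 1.5-fold lower in both comparisons. Cyp51, the demethylase of lanosterol, was at 198, 199.9, 81.5 and 50.1 CPM, with ratios of -1.88 and -1.24. Msmo1, a sterol oxidase that acts after it, was at 281, 311, 104 and 116 CPM, with ratios of -1.24 and -1.54. Sqle, which oxidizes squalene, was at 49.8, 58.5, 17.6 and 13.9 CPM, and Fdft1, which makes squalene, at 108, 98.2, 38.7 and 31.9 CPM. In the other 4, too, both AMH libraries lay below both others. Sc5d, a late desaturase, was at 112, 113, 42.2 and 41.7 CPM. Nsdhl, which removes a carboxyl group, was at 36.5, 39.5, 9.8 and 10.6 CPM, and Hsd17b7, a reductase, at 59.3, 61.4, 24.5 and 21.2 CPM. Ebp, an isomerase, differed least, at 44.9, 47.5, 26.7 and 25.8 CPM with ratios of -0.69 and -0.73. The 7 synthesis genes under the filter (Acat2, Mvk, Mvd, Lss, Tm7sf2, Lbr and Dhcr7) had ratios between -1.40 and 0.02, and Lbr alone was within 0.58 of 0 in both, while the other 6 were at least 1.5-fold lower in both.

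The sterol-sensing genes were lower too. Srebf2, the SREBP gene most tied to cholesterol synthesis and itself an SREBP target, was at 127, 114, 64.2 and 53.3 CPM, with ratios of -1.18 (-1.28 to -1.09) and -0.79 (-0.89 to -0.69). Insig1, also a known SREBP target, was at 74.8, 77.6, 29.9 and 22.6 CPM. Scap, the escort protein, was at 92.8, 97.1, 43.8 and 38.6 CPM. Srebf1, which mainly drives fatty acid genes, was under the filter and had ratios of -0.45 and -0.51.

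Among the uptake and storage genes the ratios ranged widely, from those of Stard4, near the ratios of the synthesis genes, to those of the lysosomal carriers, which were above 0. Scarb1 was at 820, 757, 463 and 394 CPM, with ratios of -1.05 (-1.09 to -1.01) and -0.71 (-0.74 to -0.67). Npc2 was at 156, 169, 206 and 210.0 CPM, with ratios of 0.42 (0.36 to 0.48) and 0.28 (0.21 to 0.34), the only member that passed the filter and was above 0 in either, though under 1.5-fold in both. Npc1, the membrane partner of Npc2, was under the filter at 14.0, 12.8, 22.4 and 28.4 CPM and had ratios of 0.81 and 0.62. Soat1 was at 1347, 1209, 779 and 796 CPM, with ratios of -0.75 and -0.63. Stard4 was at 39.0, 37.7, 13.3 and 10.6 CPM, with ratios of -1.49 and -1.22. Abca1, an efflux pump known as a target of oxysterol receptors, was at 661, 794, 475 and 454 CPM, with ratios of -0.54 and -0.74. Abcg1 stayed at or below 0.3 CPM in all 4 libraries.

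**Figure D2:**
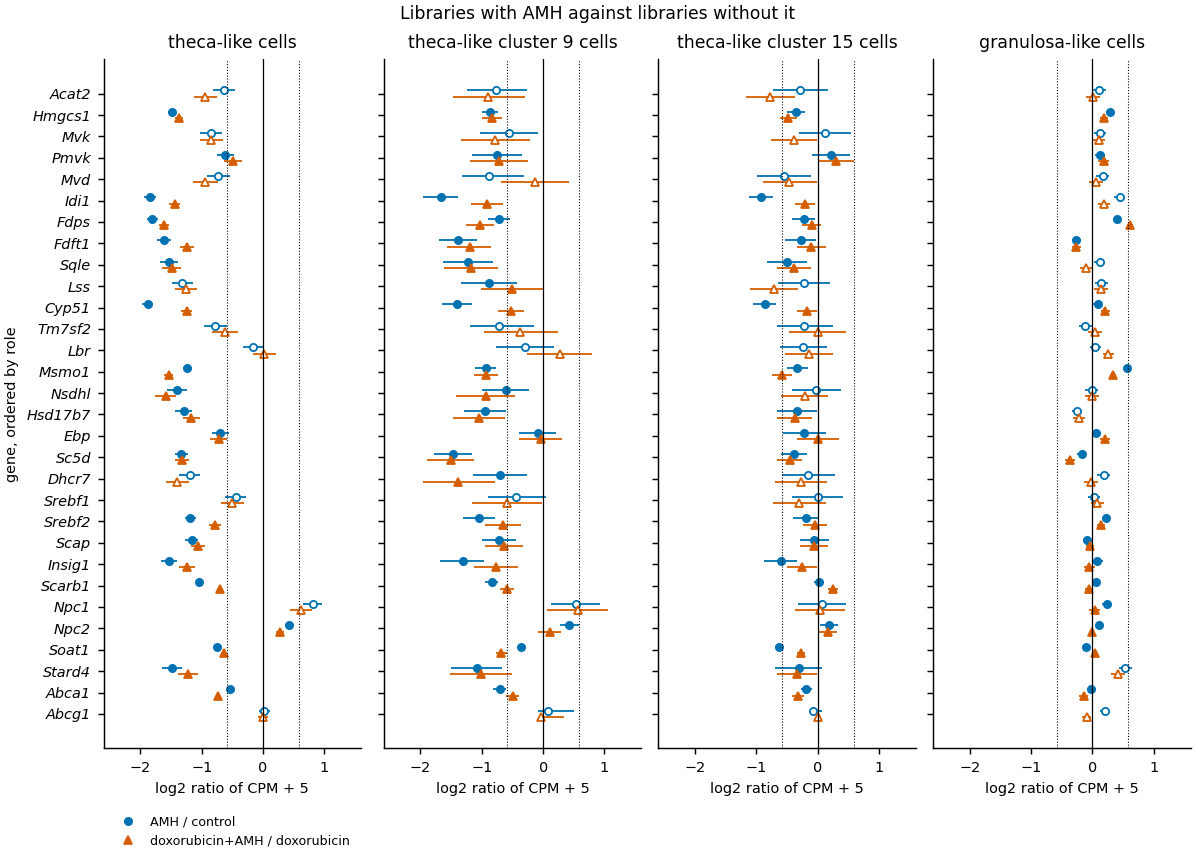
Log2 ratio of CPM + 5 for each of the 30 genes (rows, ordered by role) between libraries with and without AMH, in theca-like cells, in 2 of their clusters and in granulosa-like cells. Points are ratios (open where the gene was under the filter), bars are exact 95% counting intervals and dotted lines mark 1.5-fold. Most points lie left of the dotted line in theca-like cells, nearer to 0 in cluster 15 and around 0 in granulosa-like cells.

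The theca-like class was not one population, and its makeup differed between the libraries. It held 3 clusters, and in each of them all 8 listed theca markers passed the naming threshold. Cluster 9 (led by Serpina5, Lhcgr, Mgarp and Aldh1a1) held 664 and 426 of the control and doxorubicin theca-like cells but 57 and 68 of those with doxorubicin+AMH and AMH. Cluster 7 (led by Lhcgr, Prss35 and Dpp6) held 48, 65, 568 and 730 cells. Cluster 15 (led by Lhcgr, Sct and Enpep) held 145, 115, 130 and 131 cells, the one cluster with similar numbers throughout. Marker sums moved with the class as well. The theca markers summed to 18500, 17850, 7554 and 6739 CPM, the granulosa markers to 550, 567, 361 and 384 CPM, and the stroma markers to 807, 816, 1583 and 1656 CPM. Most of the granulosa sum was Inha, at 441, 427, 192 and 222 CPM. Serpine2, Hsd17b1, Nr5a2, Inhbb, Gatm and Amh were instead higher in both AMH libraries than in both others. Fshr, Kctd14 and Foxl2 showed neither order. The median depth was 20551, 24319, 13886 and 12607 UMIs per cell and the median mitochondrial share 8.04%, 7.46%, 5.45% and 5.59%. The part of cluster makeup, stroma-marker RNA and depth in the ratios of the whole class was not tested, and the values within clusters follow.

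Within cluster 9, where both AMH libraries had few cells, levels were lower in those libraries as well. The synthesis genes summed to 1986 (1967 to 2005), 2055 (2033 to 2077), 1094 (1037 to 1154) and 965 (920 to 1012) CPM. Of 22 members past the filter, 19 were at least 1.5-fold lower for AMH against control, against 6.83% of genes, with a median of -0.88. For doxorubicin+AMH against doxorubicin, 16 of 22 were, against 7.57%, with a median of -0.80. Idi1 was at 165, 184, 95.2 and 48.6 CPM and Sc5d at 116, 118, 38.1 and 39.0 CPM. Cluster 7, whose control part had only 48 cells, held shallower cells in the libraries without AMH, at a median of 4707, 2957, 11652 and 10957 UMIs per cell, the reverse of the whole class. It had synthesis sums of 921 (820 to 1030), 1024 (943 to 1109), 499 (485 to 512) and 516 (504 to 529) CPM. Its storage, transfer and efflux genes did not share that order, with sums of 1197, 1212, 1255.5 and 1277 CPM. Nor did its uptake and endosomal release genes, at 647, 532, 612 and 563 CPM. In cluster 9 the sums of both these sets were lower in both AMH libraries.

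In cluster 15 the difference was much smaller. The synthesis genes summed to 1168 (1134 to 1202), 1444 (1404 to 1484), 1154 (1122 to 1187) and 857 (829 to 886) CPM, so the AMH library was lowest, the doxorubicin library highest, and control and doxorubicin+AMH overlapped within counting error. Of 19 members past the filter, 4 were at least 1.5-fold apart for AMH against control, all lower, against 3.96% of genes either way, and the median was -0.31. They were Idi1 (-0.92), Cyp51 (-0.87), Soat1 (-0.62) and Insig1 (-0.60). For doxorubicin+AMH against doxorubicin, 0 of 19 were, against 3.88% either way, and the median was -0.21. Scarb1, lower in the whole class, was at 597, 558, 666 and 602 CPM in cluster 15, with ratios of 0.01 and 0.25. Soat1 was at 1011, 964, 795 and 654 CPM.

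**Figure D3:**
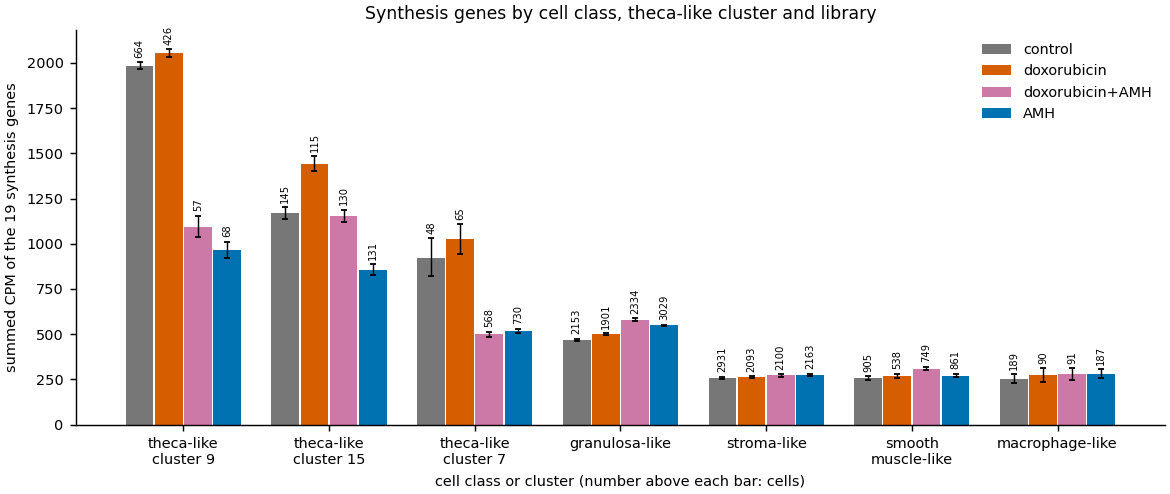
Summed CPM of the 19 synthesis genes (bars, from 0) by cell class or theca-like cluster and library, with exact 95% counting intervals and the number of cells above each bar. Both AMH libraries are below both others in clusters 9 and 7, the doxorubicin+AMH library is level with control in cluster 15, and the granulosa-like sums lie between 468 and 581 CPM.

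Doxorubicin went with small differences in theca-like cells. The median over the 20 members was 0.06 for doxorubicin against control and 0.19 for doxorubicin+AMH against AMH, beside 0.00 and 0.01 for all genes. None of the 20 was 1.5-fold apart in the first comparison, against 0.399% of genes, and 1 was in the second, against 0.638%: Cyp51, at 0.65 (0.54 to 0.76), and with equal weight per cell it was at 0.47, under 1.5-fold. The highest by the ratio closer to 0 were Sqle (0.21 and 0.26), Idi1 (0.14 and 0.55) and Pmvk (0.08 and 0.20). Soat1 (-0.15 and -0.03) was the one member past the filter that was below 0 in both.

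The doxorubicin differences varied by cluster. In cluster 9 the synthesis sums were 1986 CPM in control and 2055 in doxorubicin, and 965 in AMH and 1094 in doxorubicin+AMH. In cluster 7 they were 921 and 1024 CPM, and 516 and 499 CPM, in the same order. Cluster 15 had somewhat larger values. All 11 synthesis genes that passed the filter there were above 0 in both comparisons, with medians of 0.25 and 0.33, beside medians of 0.02 and 0.02 for all genes, of which 31.1% were above 0 in both. Other genes of the cluster lay above 0 with them, among them the theca markers Cyp11a1 (0.50 and 0.37) and Cyp17a1 (0.40 and 1.00) and the desaturase Fads2 (0.64 and 0.38). Others had mixed signs, among them the theca marker Star (-0.54 and 0.37), Fdxr (0.13 and -0.005), Acaca (-0.03 and 0.31) and Me1 (0.015 and -0.33). The theca markers Fdx1 (0.04 and 0.60) and Hsd3b1 (0.37 and 0.08) were above 0 in both. Of the 19 members, 1 was at least 1.5-fold apart for doxorubicin against control, against 2.41% of genes, namely Stard4, at 20.4 CPM in control and 35.6 in doxorubicin (0.68). For doxorubicin+AMH against AMH, 4 were, against 2.13% of genes, and all were higher: Idi1 (0.96), Cyp51 (0.80), Stard4 (0.64) and Fdps (0.63). Idi1 in this cluster was at 139, 166, 143 and 70.7 CPM, and Cyp51 at 158, 171, 150 and 84.4 CPM, so for both the AMH library stood alone as the low one.

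**Figure D4:**
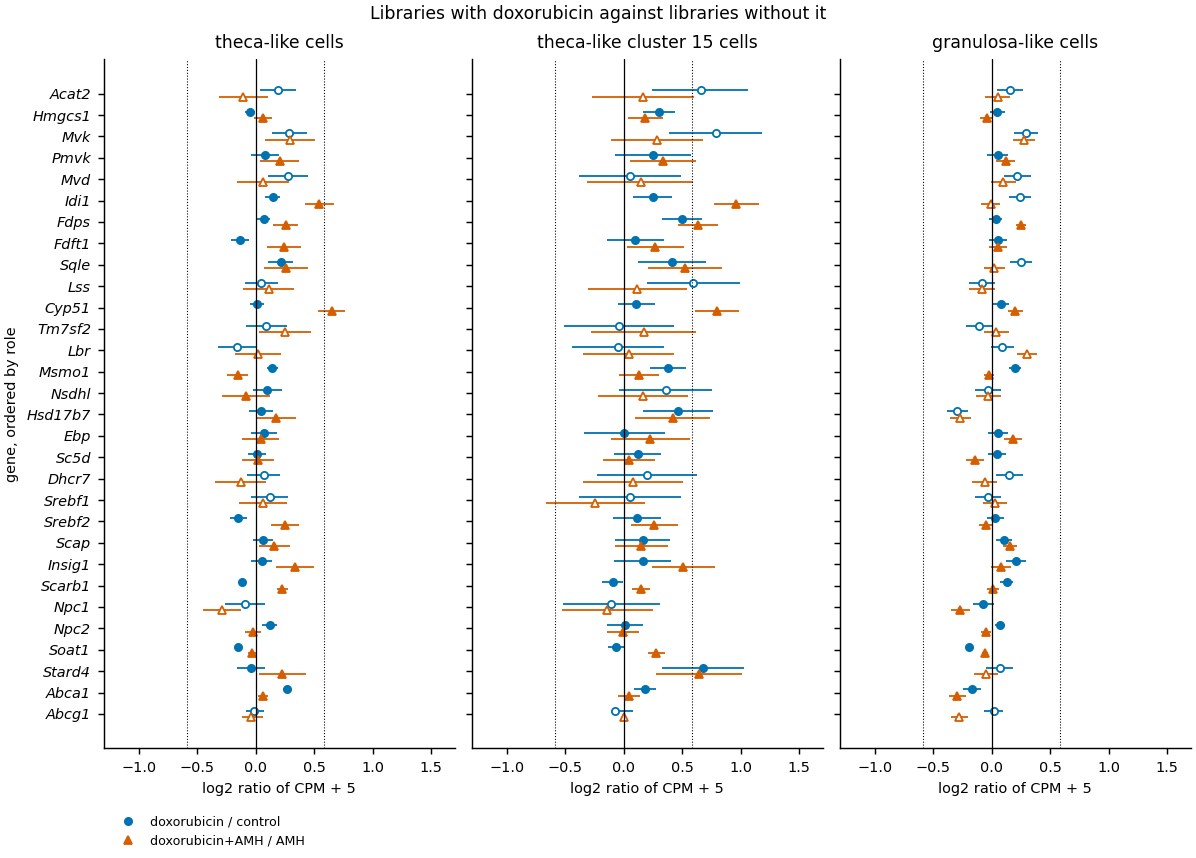
Log2 ratio of CPM + 5 for each of the 30 genes between libraries with and without doxorubicin, in theca-like cells, theca-like cluster 15 and granulosa-like cells. Symbols, bars and dotted lines are as in the plot of the AMH ratios. Nearly all points lie between the dotted lines, and those of Idi1 and Cyp51 in the comparison with AMH lie farthest right in cluster 15.

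In granulosa-like cells the libraries differed by less than 1.5-fold for all but 1 of the members that passed the filter. Of the 30 members, 16 passed the filter, and their medians were 0.05 for doxorubicin against control, -0.01 for doxorubicin+AMH against AMH, 0.08 for AMH against control and 0.04 for doxorubicin+AMH against doxorubicin, beside -0.02, 0.00, -0.06 and -0.03 for all genes. At least 1.5-fold differences, either way, were seen for 0, 0, 0 and 1 of the 16 in that order, against 0.166%, 0.469%, 2.36% and 2.87% of 6610 genes. With only 16 members, these counts are near those shares and are no result about the members. The 1 member counted was Fdps, at 76.0, 77.9, 122 and 102 CPM, with a ratio of 0.61 (0.56 to 0.66) for doxorubicin+AMH against doxorubicin and 0.40 (0.35 to 0.45) for AMH against control. The first was 0.56 with equal weight per cell and 0.58 with doublets left in, both under 1.5-fold. Both AMH libraries were thus above both others for Fdps, the reverse of theca-like cells. The same order held for Msmo1, at 73.4, 85.0, 109 and 111 CPM with AMH ratios of 0.56 and 0.34, and for Hmgcs1, at 50.8, 52.6, 60.9 and 62.8 CPM with ratios of 0.28 and 0.19.

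The ratios of these 3 genes varied among the 7 granulosa-like clusters. For AMH against control they ranged from -0.15 to 0.63 for Fdps, from -0.05 to 1.02 for Msmo1 and from -0.12 to 0.91 for Hmgcs1, and for doxorubicin+AMH against doxorubicin from 0.05 to 0.88, from -0.12 to 0.66 and from -0.05 to 0.61. These ranges include the shallow clusters 12 and 16, at medians of 3479.5, 3412.5, 3235 and 2838 and of 3429, 1627, 2141 and 7468 UMIs per cell. In cluster 12 all 7 mevalonate genes together had 62, 53, 137 and 246 UMIs, so counting error is large there. In cluster 6, led by Inhba and Inhbb, Msmo1 had AMH ratios of 0.71 and 0.34, Fdps of 0.55 and 0.40 and Hmgcs1 of 0.55 and 0.29. In cluster 0, led by Kcnq5 and Bmpr1b, they were -0.05 and -0.12 for Msmo1, -0.04 and 0.05 for Fdps and -0.06 and 0.18 for Hmgcs1. Cluster 6 held 330, 250, 492 and 423 cells, or 15.3%, 13.2%, 21.1% and 14% of the class. Cluster 0 held 810, 602, 535 and 884, or 37.6%, 31.7%, 22.9% and 29.2%. The mix of granulosa-like clusters thus also moved with the libraries, and its part in the class values was not tested.

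The lowest members by AMH ratios in granulosa-like cells were Fdft1 (33.5, 34.9, 28.2 and 27.0 CPM, -0.26 in both), Sc5d (35.6, 36.9, 27.6 and 30.9 CPM, -0.18 and -0.36) and Scap (48.2, 52.3, 50.6 and 44.9 CPM, -0.09 and -0.04). By doxorubicin ratios, Scap (0.11 and 0.16), Insig1 (0.21 and 0.08) and Cyp51 (0.07 and 0.20) were highest and Abca1 (-0.17 and -0.30), Npc1 (-0.07 and -0.27) and Soat1 (-0.20 and -0.06) lowest. For these, Insig1 was at 20.5, 24.5, 23.5 and 22.0 CPM, Cyp51 at 38.3, 40.6, 47.7 and 40.9 CPM, and Npc1 at 22.8, 21.5, 22.2 and 27.8 CPM. Abca1 was at 39.1, 34.3, 30.5 and 38.6 CPM and Soat1 at 421, 367, 377 and 392 CPM. None of these differences reached 1.5-fold. Cyp17a1, the theca enzyme that granulosa cells should lack, was counted in granulosa-like cells at 7.21, 6.91, 1.05 and 1.47 CPM, and Cyp11a1 at 33.0, 34.6, 21.9 and 19.9 CPM, lower in both AMH libraries. The 8 theca markers together did not share that order there, with sums of 955, 891, 1115 and 994 CPM. The largest part of these sums was Hsd3b1, at 572, 480, 620 and 539 CPM, and Mgarp was at 73.9, 92.8, 162 and 139 CPM. The part of theca RNA in the granulosa-like values was not tested.

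In the 5 other classes with at least 50 cells in every library, the median over the members that passed the filter was smaller than in theca-like cells for both AMH comparisons. Without doxorubicin it was -0.04 in stroma-like, 0.10 in smooth muscle-like, 0.14 in pericyte-like, 0.12 in macrophage-like and -0.20 in blood endothelial-like cells. With doxorubicin in both libraries it was 0.08, 0.05, 0.43, 0.20 and -0.16. Of 11, 11, 13, 14 and 14 members past the filter, in that order, 1, 0, 4, 2 and 3 were at least 1.5-fold apart without doxorubicin, against 1.01%, 0.843%, 14.4%, 7.65% and 10.4% of genes. With it, 0, 0, 7, 2 and 0 were, against 1.21%, 0.675%, 14.7%, 16.5% and 5.93%. The 7 in pericyte-like cells were 6 higher and 1 lower, and they rested on few UMIs: all 19 synthesis genes there had 388, 244, 223 and 221 UMIs, or 331, 276, 375 and 353 CPM. Granulosa markers in these cells summed to 302, 279, 812 and 809 CPM. In blood endothelial-like cells the AMH library stood apart, with stroma markers at 373, 468, 423 and 1264 CPM and macrophage markers at 24.9, 21.2, 24.3 and 188 CPM. The part of this RNA in the ratios of both classes was not tested.

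Surface epithelial-like cells numbered 107, 93, 36 and 64 and so fell outside those classes. Their synthesis genes summed to 549 (524 to 574), 426 (404 to 450), 396 (345 to 452) and 286 (260 to 313) CPM, so the control library was highest, the AMH library lowest and both doxorubicin libraries overlapped within counting error. The class held 2 clusters in unequal parts (66, 54, 35 and 30 cells of cluster 27 and 41, 39, 1 and 34 of cluster 30), and the stroma markers in it summed to 2066, 2656, 1139 and 4471 CPM. Their part in these sums was not tested.

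Neighbouring pathways in theca-like cells were read beside the same background. Of the 10 listed genes of fatty acid synthesis and desaturation, 8 passed the filter, and 5 of the 8 were at least 1.5-fold lower in each AMH comparison (against 8.31% and 8.27% of genes, as for the lists that follow), with medians of -1.38 and -1.16. The desaturases Fads2, at 428, 489.5, 87.9 and 71.5 CPM, and Fads1, at 168, 160, 38.2 and 37.2 CPM, differed most. Of 6 steroid output genes, all but Fdxr also in the theca marker list, 5 were lower in each, with medians of -1.40 and -1.28: Cyp17a1, which makes androgens, was at 1873, 1818, 306 and 136 CPM, and Cyp11a1, the side-chain cleavage enzyme, at 3330, 3118, 563 and 474 CPM. Star, which carries cholesterol into mitochondria, was at 421, 324, 371 and 318 CPM and was not 1.5-fold apart in any comparison.

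The remaining lists were read the same way. Of 16 genes of sterol uptake, hydrolysis and transport, 10 passed the filter. Of these, 3 were lower in each AMH comparison, Gramd1b, a carrier of cholesterol from the plasma membrane (1760, 1695, 431 and 452 CPM), and the hydrolases Nceh1 (78.4, 88.2, 27.0 and 26.9 CPM) and Lipe (38.7, 35.6, 17.0 and 18.3 CPM), the last past the filter through the libraries without AMH. Vldlr, a lipoprotein receptor, was at 14.0, 16.8, 24.7 and 27.4 CPM, past the filter through the AMH libraries, with ratios of 0.77 and 0.45. None of the 3 isoprenoid genes past the filter (Ggps1, Nus1 and Pdss2), which draw on the same farnesyl pool, was 1.5-fold apart, with medians of -0.10 and -0.09, and neither of the oxysterol genes past it (Nr1h2 and Lpcat3) was, against 14.1% and 13.7% of genes either way, so with so few genes these counts are no result about the lists. In cluster 9, 5 of the 8 fatty acid genes were at least 1.5-fold lower in each AMH comparison (against 6.83% and 7.57% of genes), with medians of -0.91 and -0.87, and 2 of the 6 steroid output genes, Cyp17a1 (-2.64 and -1.46) and Cyp11a1 (-1.49 and -1.38). In cluster 15, of the 6 steroid output genes Cyp17a1 alone was at least 1.5-fold lower (-1.28 and -0.68), Star was 1.5-fold higher in the second comparison (-0.27 and 0.63), and the other 4 lay between -0.39 and 0.18. Of the 8 fatty acid genes, 0 and 1 were at least 1.5-fold lower there, against 1.56% and 1.44% of genes. Gramd1b had ratios of -0.09 and -0.46.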

How the data were processed

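Per the file headers, Cell Ranger 7.0.0 made the deposited values, which are raw UMI counts for each gene in each cell. Build mm10, R 4.2.0 and Seurat 4.1.0 are named in the submitters' processing notes. The settings for strand and intronic reads are not given in the sources used here. The 30 genes, the pathway lists and the marker lists were chosen with earlier results of these data known.

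Cells under 1000 UMIs or over 20% mitochondrial UMIs were dropped. Doublet scores were computed with Scrublet (scanpy 1.11.5), and the top 0.8% per 1000 cells of each library were removed (590, 328, 390 and 584 cells), because Scrublet's automatic cutoff marked 349, 6, 0 and 0. Pairs of libraries shared 11 to 24 barcodes. Joint clustering (30 principal components, 20 neighbours, Leiden at resolution 1.0, leidenalg 0.10.2) used 2000 variable genes and left out the 30 genes and all pathway genes. A class name needed 3 markers, 50% of its list and 1 marker among the 10 leading genes, thresholds set after the clusters were seen. The 2 clusters with over 90% of cells from 1 library were left out. That library was doxorubicin for both, with 179 of 186 cells of a cluster with smooth muscle markers and 80 of 85 cells of a granulosa-like cluster. The first was not added back in any alternative.

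UMIs were summed per class and library. Ratios are log2 of CPM + 5, with exact conditional binomial intervals at 95%, and level intervals are exact Poisson. The ratio code was tested on simulated counts. With 1 library per group no test was made, and a call means at least 1.5-fold. Values in all 4 libraries are printed for members that reached it in theca-like or granulosa-like cells and passed the filter there, and for the 3 highest and 3 lowest by the ratio closer to 0 in each pair of comparisons. Other members are given by counts and ranges.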

Additional observations from a re-analysis of the deposited data

Results flagged for a closer look

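For 4 synthesis genes and Srebf2, the AMH ratios had opposite signs in the 2 follicle classes. Each was at least 1.5-fold lower in theca-like cells in both AMH ratios and above 0 in granulosa-like cells in both, with counting intervals above 0, but of the granulosa-like ratios only 1, of Fdps, reached 1.5-fold. Among 5548 genes past the filter in both classes, 267 were so lower in theca-like cells, and 44 of these (16.5%) had the whole pattern, against 5 of the 12 members so lower. The difference between the classes was not tested, since each group has 1 library, and the mix of clusters within both classes also differed between libraries. Values are log2 ratios, first AMH against control and then the doxorubicin+AMH library against doxorubicin.

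Fdps was at 0.40 and 0.61 in granulosa-like and -1.80 and -1.62 in theca-like cells. Msmo1 was at 0.56 and 0.34 in granulosa-like and -1.24 and -1.54 in theca-like cells. Hmgcs1 was at 0.28 and 0.19 against -1.49 and -1.38, and Srebf2 at 0.22 and 0.14 against -1.18 and -0.79. Cyp51, with the smallest granulosa-like ratio of these genes for AMH against control, was at 0.083 and 0.21, against -1.88 and -1.24 in theca-like cells.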

How the results depend on the processing

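No paired analysis was possible because each group has 1 library. Under 9 alternatives (marker gate per cell, 500 UMIs, 10% mitochondrial UMIs, doublets left in, resolution 0.5, median-of-ratios scaling, equal weight per cell, a pseudocount of 1 CPM, no filter) no called value changed sign. The theca-like median lay between -1.43 and -1.17 for AMH against control and between -1.304 and -1.01 for doxorubicin+AMH against doxorubicin, where -1.01 came without the filter. The number lower was 17 to 24 in each. Without the filter 1 member, Npc1, was higher in each in place of 0.

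Small counts moved. In granulosa-like cells, 1 member in place of 0 was higher for AMH against control with median-of-ratios scaling, equal weight per cell, doublets left in or the marker gate. With doublets left in the class itself changed, since 38.6% of its 9417 cells fell in clusters left unnamed, and the part of each change was not tested. Fdps was under 1.5-fold in the doxorubicin+AMH library against doxorubicin with equal weight or doublets left in. In theca-like cells, doxorubicin+AMH against AMH had 2 members higher with a pseudocount of 1 CPM and 0 with equal weight. Adding the granulosa-like cluster found in 1 library, and reading values within theca-like clusters, were chosen after seeing the data. The members lower in theca-like cells numbered 18 in the class but 4 and 0 in cluster 15.

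Only counting error is known, and Abcg1 in theca-like cells rested on 3 to 7 UMIs per library.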
